A study of Mus musculus with 28 samples.

Results

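The comparison described here set single Müller glial cells (MGCs) from rhodopsin knockout (Rhod-ko) retinas of 8 weeks against cells of the same genotype at 25 weeks. Its members were defined by their labels, and the choice was made with earlier results of these data known. They were 10 of the 28 cells of the series, 5 at each age. Each cell was picked by hand from a dissociated retina and hybridized to an array of its own. Both groups had the C57/BL6 strain and the deletion of the rod-specific rhodopsin gene in common, so they differed by age, and with it by the stage of the degeneration and by the arrays used. No label or method names the animal of a cell, and several litters were used, so each age was treated as 1 sample of 5 cells. No test between the ages was therefore possible, and every difference below is a description of these 10 cells. The cells labelled 1, 2, 3, 7 and 8 (8 weeks) and A1, A2, A3, A4 and A5 (25 weeks) are given in that order throughout. The 5 adult wild-type (WT) cells of the same strain, here in the order MG1, MG3, MG15, MG16 and MG22, are set beside them as reference values. Their labels give an age above 25 weeks, whereas the study's own text gives a much younger minimum, so their age relative to the Rhod-ko groups is uncertain. The targeted gene itself was not analysed here.

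MGCs are the principal glia of the retina. They span its whole thickness, clear glutamate, potassium and carbon dioxide from around the neurons, recycle cone chromophore, and carry, in the adult, many transcription factors of retinal progenitors. After injury or photoreceptor death they pass into gliosis, a state usually recognised by glial fibrillary acidic protein (GFAP). In Rhod-ko mice the rods die first, and the cones, which do not use rhodopsin, die later; the study placed the height of rod death at 8 weeks and that of cone death at 25 weeks. The question put to this pair of groups is how the transcriptome of a mutant MGC differed between these stages.

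A gene's value was the highest signal among its probe sets in that cell, and 2000 or more counted as on. The deposited signals were linear and scaled per array by the authors. Differences are the median log2 signal of the 5 cells at 25 weeks minus that at 8 weeks, with every signal below 1000 set to 1000, and the range that follows in square brackets is the lowest and highest value when each of the 10 cells was left out in turn. "At least" and "or beyond" mark a difference in which 1 median lay under that floor, so that only a bound was measured. A share of 5 of 5 cells has an exact 95% binomial interval of 47.8 to 100%, 4 of 5 one of 28.4 to 99.5%, and 0 of 5 one of 0.0 to 52.2%, which cover counting error only.

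The 25 weeks arrays differed from the 8 weeks arrays in control and quality measures, which moved with every result below. Bacterial control RNAs, added at hybridization and read by 18 probe sets, had a geometric mean signal of 88924 to 211848 on the 8 weeks arrays and of 19093 to 26340 on the 25 weeks arrays, with 48229.5 to 227729 in adult WT. The 18S ribosomal RNA control read 12983 to 45916 at 8 weeks, 59.5 to 3258 at 25 weeks and 661 to 6903 in WT. The ratio of the 3′ to the 5′ Gapdh control probe set was 3.95 to 18.2 at 8 weeks, 1.17 to 2.05 at 25 weeks and 0.554 to 4.06 in WT. None of these 3 measures overlapped between the Rhod-ko ages. The same ratio for the Actb control probe sets did overlap, at 0.528 to 205 at 8 weeks and 2.12 to 7.64 at 25 weeks. The strongest signals were also lower at 25 weeks: the signal exceeded by 0.1% of all probe sets was 120711 to 196563 at 8 weeks and 32904 to 38243 at 25 weeks. So was the median signal of all probe sets on an array, at 102.3 to 199.0 and 30.8 to 41.7. Age and array series cannot be told apart. For this reason the difference after quantile normalization of the 10 arrays is given wherever it moved a named gene below 2-fold or changed its sign. Scaled to the control RNAs instead, the median difference of all genes on in at least 3 of the 10 cells was 2.31 on the log2 scale, against 0.15 as deposited and 0.0 after quantile normalization. On that scale 3244 genes were at least 2-fold higher and 106 lower, and of the genes named below as lower at 25 weeks, Rlbp1, Crym, Gapdh, Hspa8, Pebp1, Plec, Serpina3n, Gbp2, Serping1, Rax, Rom1, Slc6a11, Slc3a2, Atp1b1, Cox5b, Pdha1, Ctsd and Itgav changed sign. This scaling was chosen after the values were seen.

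**Figure D1:**
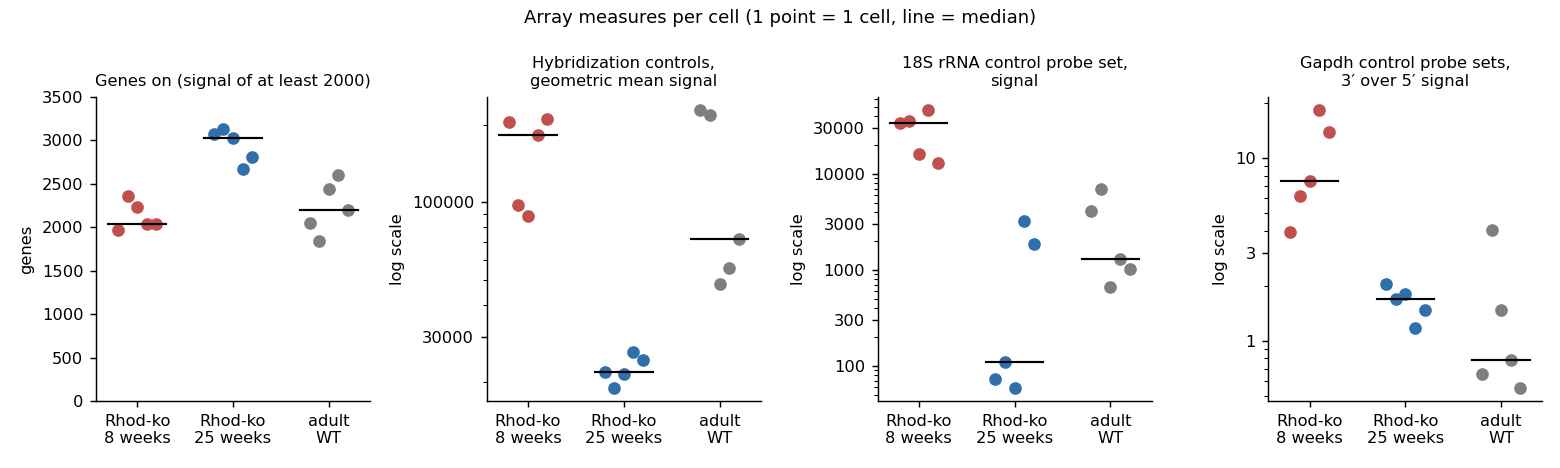
Genes on (linear axis), hybridization control signal, 18S rRNA control signal and the 3′ to 5′ Gapdh ratio (log axes) in each of 15 cells, 5 per group, with the group median as a line. The 25 weeks cells had 2670 to 3123 genes on against 1970 to 2363 at 8 weeks, and their control signals lay below all 8 weeks arrays.

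The cells of both ages carried the MGC programme. Of the 22 MGC markers measured, 15 to 20 were on in a cell at 8 weeks, 19 to 21 at 25 weeks and 16 to 21 in WT. Glutamine synthetase (Glul), which converts the glutamate taken up by MGCs into glutamine, read 69192, 31288, 60587, 26049.7 and 29028 at 8 weeks and 36819, 38159, 33639, 42077 and 38549 at 25 weeks. All 10 values were far above the threshold and the groups overlapped. Retinaldehyde-binding protein (Rlbp1), the carrier of visual chromophore in MGCs, read 176910.3, 108154, 142449, 93297 and 86012 at 8 weeks and 47039, 40866, 38972, 53099 and 43791 at 25 weeks, so it was strong in every Rhod-ko cell, whereas 2 of the 5 WT cells were on. Its log2 difference of -1.30 [-1.50 to -1.20] turned to 0.93 after quantile normalization. The intermediate filament Vim (medians 40993 and 39121), the secreted Dkk3 (65291 and 39641) and the glutamate transporter Slc1a3 (10184 and 8305) differed by less than 2-fold, and all were on in all 10 cells; after quantile normalization Vim and Dkk3 lay 2.09 and 1.07 higher at 25 weeks on the log2 scale.

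Markers of other retinal cells were present in some cells and did not have the same pattern at both ages. Of 17 rod markers, 3 to 11 were on per cell at 8 weeks (summed signal 51809 to 319797) and 1 to 5 at 25 weeks (13542.5 to 38647), with 1 to 3 in WT. They were most numerous in cells 7 and 8, where arrestin (Sag, 54428 and 33269), rod transducin (Gnat1, 57659 and 54424) and recoverin (Rcvrn, 92081 and 45343) were on. The disc protein Rom1 had medians of 12833 and 3368 (-1.93 [-2.81 to -0.09]), under 2-fold without cell 3, 7 or 8 in turn, and without cells 7 and 8 together the difference was 1.75. At 25 weeks Gnat1 and Pde6g were below 1000 in all cells. Of 19 microglia and macrophage markers, 7 were on in cell 7 (summed signal 292083), led by the receptor Csf1r (118151) and the complement chain C1qb (78045), while Aif1, Cx3cr1, Tmem119 and P2ry12 were not. In the other 9 cells 0 or 1 of them were on. By number on, bipolar markers went the other way, with 0 to 2 of 12 on at 8 weeks and 2 to 4 at 25 weeks. Their summed signal did not, at 4141 to 75301 at 8 weeks and 10861 to 27743 at 25 weeks. It was highest in cells 7 and 8 (68053 and 75301). Of these markers, secretagogin (Scgn) was on in 0 early and 3 late cells (at least 2.58 [1.29 to 2.65]). Pcp2 was on in cells 7 and 8 and in 4 late cells (at least 2.53 [0.99 to 2.84]), under 2-fold without cell 1, 2 or 3 in turn. Ganglion cell markers were on for 0 or 1 of 11 genes at 8 weeks (3400.3 to 35828) and for 0 to 4 at 25 weeks (1790.3 to 29611), with the neurofilament Nefl on in cells A2, A3 and A4. Cell A2 also had 5 of 14 amacrine and horizontal markers on, against 1 or 2 in the other 9 cells. Of 10 astrocyte markers, several of which MGCs also express, 3 to 5 were on at 8 weeks and 3 to 6 at 25 weeks. Cone (0 to 3 of 11 at both ages), pigment epithelium (0 or 1 of 11) and blood cell markers (0 of 2) were few at both ages, and vascular markers ranged from 1 to 4 of 15. Their part in the differences below was not tested. A lower signal of a photoreceptor gene in a picked MGC cannot be told apart from less free photoreceptor RNA.

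The 25 weeks cells had more genes on. They numbered 3076, 3123, 3028, 2670 and 2804, against 1970, 2363, 2238, 2038 and 2033 at 8 weeks, without overlap, and 2045, 1847, 2437, 2603 and 2197 in WT. At a threshold of 1000 the medians were 3298 at 8 weeks and 3879 at 25 weeks, and at 10000 the order was the opposite, with 678 and 580. With arrays scaled to the same 90th percentile the medians were 2504 and 2607. Quantile normalization, which gives all arrays the same distribution of signals, made them nearly equal by construction, at 2617 and 2611.

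Of 18194 genes measured, 1333 were at least 2-fold higher at 25 weeks, which is 7.33% of all genes and 35.8% of the 3720 genes on in at least 3 of the 10 cells. Another 757 were at least 2-fold lower, which is 4.16% of all genes and 20.3% of those on. Every gene at least 2-fold apart was among these 3720. For lists of expressed genes below, the shares of the genes on are therefore the nearer reference. After quantile normalization the split was 939 higher and 1064 lower, and with each array scaled to the same 90th percentile it was 840 and 1195. The genes that were at least 2-fold apart the same way under all 3 scalings numbered 794 higher and 692 lower. For 216 of the higher genes (1.19% of all) all 5 cells at 25 weeks lay above all 5 at 8 weeks, and for 163 of the lower genes (0.896%) all 5 lay below. This order was read on the signals without the floor, so it can rest on signals below 1000. For Apoc1, a gene among the 163, the gap between the floored groups was 0.0. Overlap of gene signals is meant in this way throughout. In adult WT the median of the genes higher at 25 weeks was nearer to the 8 weeks median for 908 and nearer to the 25 weeks median for 425. Of the genes lower at 25 weeks, the WT median was nearer to 25 weeks for 675 and nearer to 8 weeks for 82. The WT median was on for only 449 of the higher and 199 of the lower genes. A gene with a WT median at the floor lies nearer to whichever age is lower, so these counts do not measure likeness to WT. The genes higher at 25 weeks included 854 with an 8 weeks median under the floor, and the lower ones 379 with a 25 weeks median under it, so for these only a bound was measured.

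**Figure D2:**
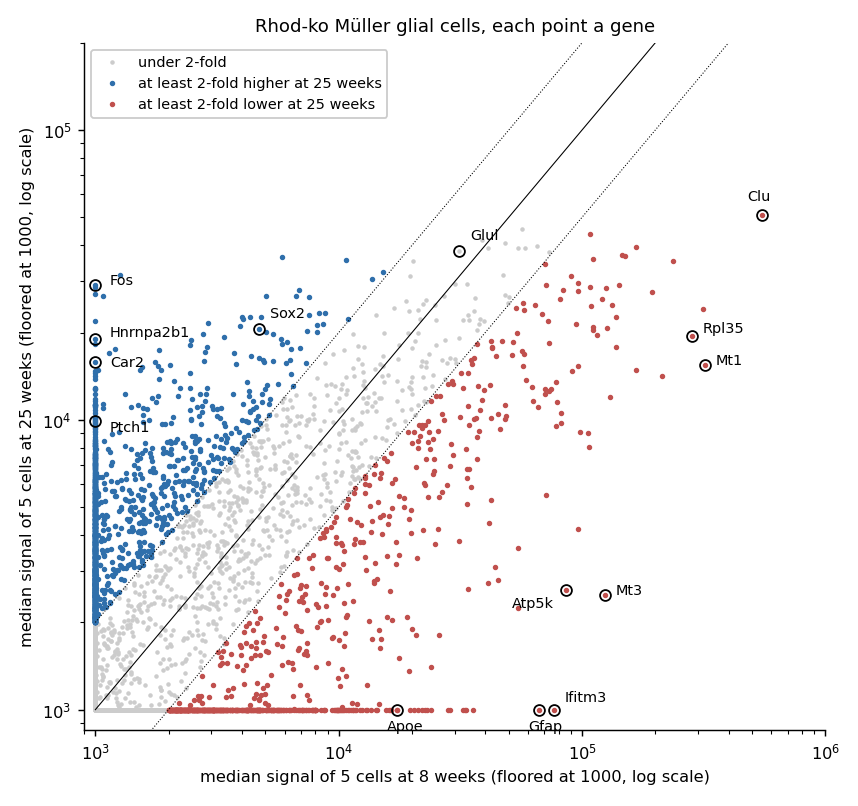
Median signal of the 5 cells at 8 weeks (horizontal, log scale) against that at 25 weeks (vertical, log scale), floored at 1000, for each gene with a median above the floor at either age. The solid line marks equal signals and the dotted lines 2-fold; Fos, Car2 and Hnrnpa2b1 stand at the left edge, Gfap and Ifitm3 at the lower edge, and Clu far right.

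Genes of reactive gliosis lay on both sides. Of 35 measured members, 10 were at least 2-fold lower at 25 weeks and 5 higher (10 and 6 after quantile normalization; 3 and 15 scaled to the control RNAs). The median over the 21 members on was -0.79, against 0.15 over all genes on, and over all 35 it was 0.0. Here and below, genes on in a list are those on in at least 3 of the 10 cells. A gene can reach that through the cells of 1 age alone, so such medians lean on the age where members are high. Gfap, the filament protein that defines gliosis, read 69.1, 83415, 20038, 66692 and 79269 at 8 weeks and 78.4, 41.8, 29918, 29.7 and 1803 at 25 weeks. It was on in every 8 weeks cell but cell 1 and, at 25 weeks, in A3 alone, a log2 difference of -6.06 or beyond [-6.18 to -5.19]. The protease inhibitor A2m, which is made by reactive astroglia, had a similar pattern. It read 561, 36790.2, 8432, 20007 and 1571 at 8 weeks and 512, 62.3, 29622, 17.5 and 75.0 at 25 weeks, on in cells 2, 3 and 7 and, of the later cells, again in A3 alone (log2 difference -3.08 or beyond [-3.70 to -1.86]). Plectin (Plec), which ties intermediate filaments to other parts of the cytoskeleton, read 283, 29456, 37617, 24924 and 11525 and 3718, 3258, 9659, 7512 and 103. It was low in cells 1 and A5 and differed by -2.74 [-2.87 to -2.19] on the log2 scale.

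Galectin-1 (Lgals1), a sugar-binding protein, stayed on in the later cells at lower signal. It read 167588, 81697, 133968, 39754 and 80397 at 8 weeks and 4171, 4993, 14455, 10550.2 and 18253 at 25 weeks, without overlap and with a log2 difference of -2.95 [-3.49 to -2.73]. All 10 Rhod-ko cells were on, against 1 of 5 WT cells. The serine protease inhibitor Serpina3n (medians 17170.4 and 3794, log2 difference -2.18 [-3.14 to -1.26]) and the interferon-inducible GTPase Gbp2 (4732 and 980.4, -2.24 or beyond [-2.50 to -1.77]) were likewise lower, and both were on in 0 of 5 WT cells; at 25 weeks their highest cell was again A3. Against these, the hyaluronan receptor Cd44 read 439, 2198, 1659.5, 226 and 1553 at 8 weeks and 6309, 3118, 6557, 2646 and 14028 at 25 weeks, without overlap (log2 difference 2.02 [1.51 to 2.34]). The neural proteoglycan Cspg5 was on in 1 cell at 8 weeks and 5 at 25 weeks (2.26 [1.91 to 2.72]), and it was on in 0 of 5 WT cells. Galectin-3 (Lgals3; medians 747 and 4276, at least 2.10 [1.05 to 2.28]) was higher too, though 2 of the 5 later cells were below 50. The signal transducer Stat3 had higher medians at 25 weeks (1081 and 3849, 1.83 [0.08 to 2.21]), but its highest signal of all was 50715 in cell 1, it was under 2-fold without cell 2, 7 or 8 in turn, and without cells 7 and 8 together the difference was -1.68.

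**Figure D3:**
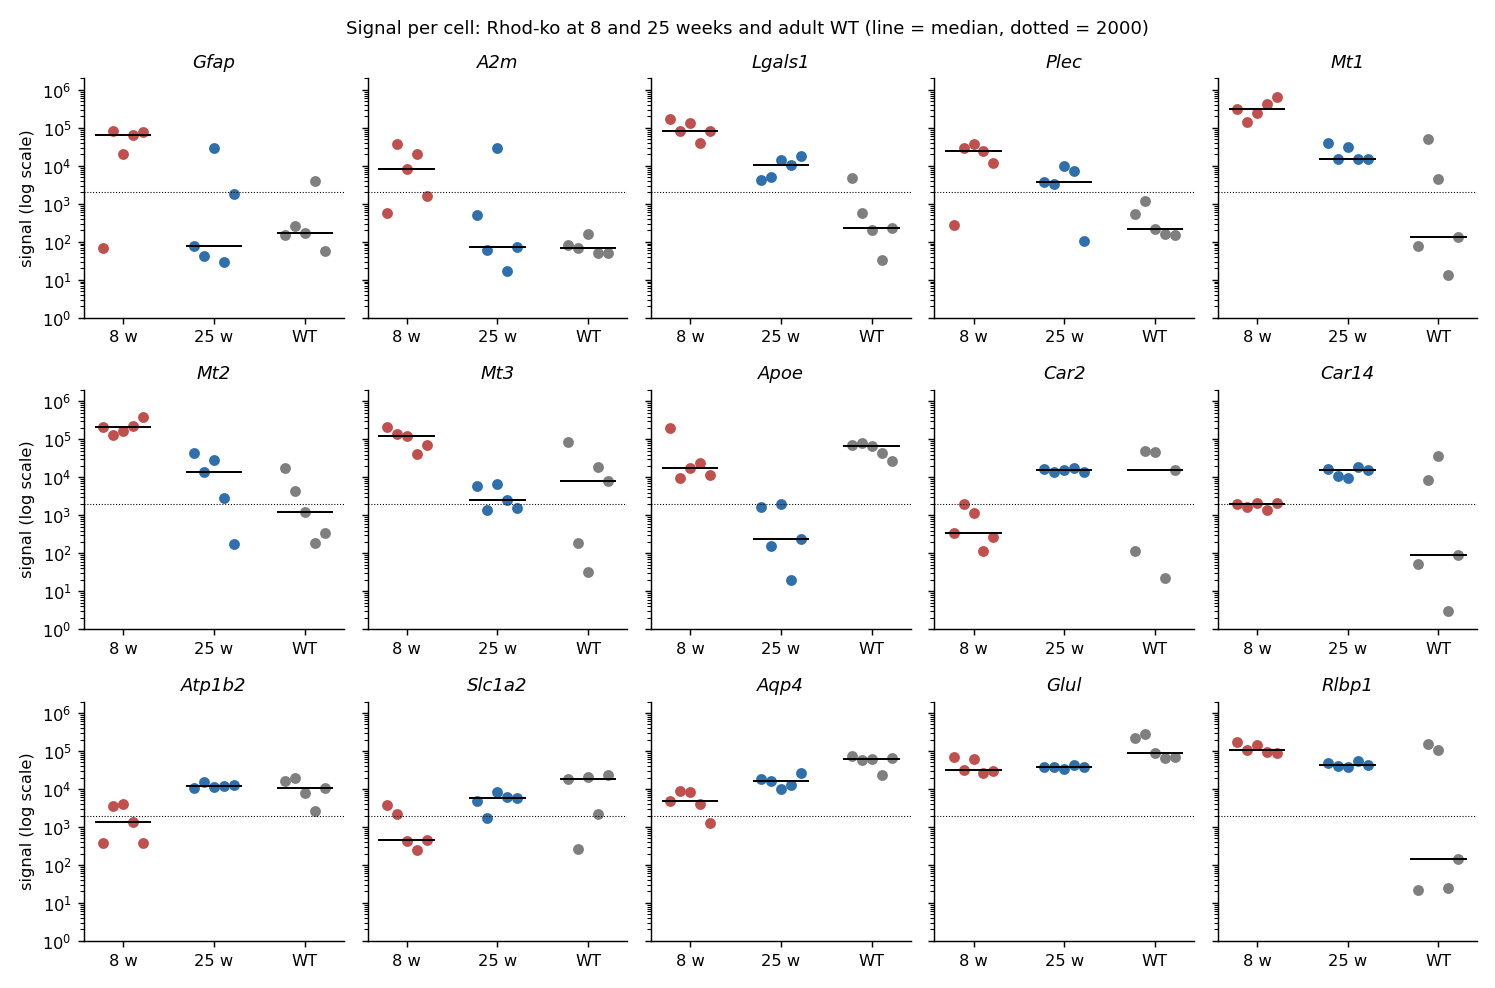
Signal of 15 genes (log axis) in each of the 5 cells at 8 weeks, 5 at 25 weeks and 5 adult WT cells, with the median as a line and the threshold of 2000 dotted. Gfap was on in 4 and A2m in 3 of the 8 weeks cells and both in A3 alone at 25 weeks, the metallothioneins were lower at 25 weeks, Car2, Car14 and Atp1b2 were higher, and Glul overlapped.

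Metallothioneins, small cysteine-rich proteins that bind zinc and copper, had some of the largest differences of all, lower at 25 weeks. Mt3, the neural form, read 214906, 137799, 123959, 40228 and 72273 at 8 weeks and 6059, 1411, 6896, 2494 and 1519 at 25 weeks, a log2 difference of -5.64 [-5.99 to -5.00]. Mt1 read 320242, 141008, 245928, 435101 and 659741 and 41011, 15484, 30979.8, 15131 and 15371 (-4.37 [-4.59 to -3.87]), and Mt2 read 213266, 134326, 166584, 231409 and 392459 and 45051, 14176, 28615, 2802 and 178 (-3.91 [-5.08 to -3.40]). In none of the 3 genes did the ages overlap, and all 3 stayed at least 2-fold lower under quantile normalization (-5.43, -3.31 and -2.63). In WT the median was 8199 for Mt3, 132 for Mt1 and 1237 for Mt2, with 2 or 3 of 5 cells on, and all 5 values of Mt1 at 25 weeks were above 4 of the 5 WT cells. Mt1 and Mt2 lie next to each other on chromosome 8, and both are known targets of the metal-sensing factor MTF1, which binds metal response elements (MREs). Their promoter sequences are shown because the genes moved together: the 250 bases before the annotated start, from RefSeq on GRCm38.p6 and in the direction of transcription, with matches to TGCACNC or TGCGCNC on either strand in capitals.
Mt1 (chr8:94178839-94179088, plus strand): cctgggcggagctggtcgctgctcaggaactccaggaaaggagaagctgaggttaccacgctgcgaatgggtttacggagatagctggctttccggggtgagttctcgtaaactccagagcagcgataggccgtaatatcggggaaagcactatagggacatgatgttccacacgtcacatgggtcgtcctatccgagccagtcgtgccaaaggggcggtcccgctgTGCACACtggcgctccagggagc
Mt2 (chr8:94172368-94172617, plus strand): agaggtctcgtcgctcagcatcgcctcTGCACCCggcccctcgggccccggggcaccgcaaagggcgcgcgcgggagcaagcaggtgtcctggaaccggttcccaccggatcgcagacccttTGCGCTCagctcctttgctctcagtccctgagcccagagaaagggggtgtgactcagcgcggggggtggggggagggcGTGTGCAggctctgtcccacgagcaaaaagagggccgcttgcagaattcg
In these 250 bases Mt1 held 1 match and Mt2 held 3. The window depends on the annotated start and no base after it was searched, so these are not counts of all MREs of either gene. Of 27025 promoters of the same length, 21.3% held at least 1 match, so the letters alone are common.

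Of 41 antioxidant and metal handling genes, the metallothioneins among them, 7 were higher and 6 lower at 25 weeks (8 and 6 after quantile normalization). In this list 22 genes were on in at least 3 of the 10 cells. The mitochondrial superoxide dismutase Sod2 read 680.3, 134, 1433, 257 and 1279.7 at 8 weeks and 7002, 7567, 6173, 5007 and 5177 at 25 weeks; it was off in all early cells and on in all late ones (log2 difference at least 2.63 [2.45 to 2.72]). Of 37 cholesterol, fatty acid and lipoprotein genes, 19 of them on in at least 3 cells, 9 were higher and 5 lower at 25 weeks. Apolipoprotein E (Apoe), which carries lipid between glia and neurons, read 196691, 9543, 17427, 24322 and 11246 at 8 weeks and 1702, 159, 2033, 20.1 and 237 at 25 weeks, without overlap (-4.12 or beyond [-4.36 to -3.74]). The 5 WT cells read 71827, 78342, 66187, 42877 and 27794, above every 25 weeks cell. Apoc1 was on in cells 1, 7 and 8 and in no later or WT cell (medians 20358 and 66.0, -4.35 or beyond [-4.69 to -2.17]), and prostaglandin D synthase (Ptgds), also a lipid carrier, had medians of 32434 and 667 (-5.02 or beyond [-5.18 to -3.79]). The sterol carrier Scp2 lay the other way (4558 and 11053, 1.28 [1.05 to 1.39]). Clusterin (Clu), an extracellular chaperone, read 549293, 287791, 374970.4, 567346 and 756546 at 8 weeks and 52398, 50346, 43062, 55308 and 50889.8 at 25 weeks. Its log2 difference of -3.43 [-3.46 to -3.16] shrank to -0.14 after quantile normalization.

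Immediate early genes, which are switched on within minutes by growth factor, calcium or stress signals, were higher at 25 weeks. Of 40 measured, 13 were at least 2-fold higher and 0 lower (13 and 1 after quantile normalization). The median over the 17 members on was 2.43, against 0.15 over all genes on, but members can be on through the 25 weeks cells alone. The 40 members together had a median of 0.0. They were unevenly spread over the late cells: 27 of the 40 were on in A1, 8 in A2, 21 in A3, 18 in A4 and 6 in A5, against 3 or 4 in 8 weeks cells 1, 2, 3 and 7, 8 in cell 8, and 4 to 9 in WT. The transcription factor Fos read 79.9, 56.5, 103, 51.9 and 38.5 at 8 weeks and 35461, 3587, 31480.2, 29154 and 22083 at 25 weeks, the largest difference towards 25 weeks among genes whose ages did not overlap (at least 4.87 [4.67 to 4.92]). It was off in all early cells, on in all late ones, lowest in A2, and on in 4 of 5 WT cells at 90169, 374, 19402, 21689 and 5009.5. Egr1, a zinc finger factor induced with it, read 54.6, 294, 319.5, 553 and 2321 and 32109, 2303, 32419.5, 27097 and 14357 (at least 4.76 [4.30 to 4.88]).

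Inducible inhibitors of signalling and growth were high in cells A1, A3 and A4 as well. Dusp1, the phosphatase that switches off MAP kinases, read 45.6, 151, 702, 97.5 and 51.6 at 8 weeks and 30476, 117, 28604, 29635 and 7736 at 25 weeks (at least 4.84 [3.90 to 4.86]), with A2 as the single late cell that was off. The antiproliferative factor Btg2 read 61.6, 3742, 93.5, 1075 and 1292 and 32137, 75.7, 26796, 31681 and 5524 (4.64 [3.50 to 4.76]), again off in A2 and, at 8 weeks, on in cell 2. Socs3, the feedback inhibitor of JAK and STAT signalling, was on in 0 cells at 8 weeks and in A1, A3, A4 and A5, with medians of 663 and 9678 (at least 3.27 [3.12 to 4.07]). Jun (medians 323 and 8111, at least 3.02 [2.27 to 3.26]), Gadd45g (686 and 14159, at least 3.82 [2.58 to 4.28]) and the messenger RNA destabilising protein Zfp36 (196 and 5398, at least 2.43 [1.22 to 2.57]) were higher too, and Ier2, Jund, Btg1, Junb and Fosb completed the 13. Atf3, a stress factor of the same family, was on in A1 (24229.7) and A3 (16856) and off in the other 8 cells, so its medians lay below the floor at both ages.

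Several of these genes are classic targets of CREB, which binds the palindrome TGACGTCA (the cyclic AMP response element) or its TGACG part. Both were searched on either strand. The 250 bases before the start of Fos, Dusp1 and Btg2 are printed as the clearest of the group, 5′ to 3′ from RefSeq on GRCm38.p6, with the full palindrome in capitals in Dusp1 and Btg2 and the TGACG part in capitals in Fos, which had no full match.
Fos (chr12:85473640-85473889, plus strand): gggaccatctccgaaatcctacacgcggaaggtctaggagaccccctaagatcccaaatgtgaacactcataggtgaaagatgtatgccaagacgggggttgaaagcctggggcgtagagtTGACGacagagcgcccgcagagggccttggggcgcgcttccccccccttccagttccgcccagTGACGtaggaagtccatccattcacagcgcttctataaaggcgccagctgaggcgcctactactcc
Dusp1 (chr17:26508473-26508722, minus strand): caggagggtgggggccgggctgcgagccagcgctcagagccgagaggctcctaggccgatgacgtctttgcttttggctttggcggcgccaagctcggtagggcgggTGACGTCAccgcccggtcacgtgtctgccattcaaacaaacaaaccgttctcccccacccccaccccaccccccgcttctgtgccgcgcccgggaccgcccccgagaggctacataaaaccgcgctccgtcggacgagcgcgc
Btg2 (chr1:134079156-134079405, minus strand): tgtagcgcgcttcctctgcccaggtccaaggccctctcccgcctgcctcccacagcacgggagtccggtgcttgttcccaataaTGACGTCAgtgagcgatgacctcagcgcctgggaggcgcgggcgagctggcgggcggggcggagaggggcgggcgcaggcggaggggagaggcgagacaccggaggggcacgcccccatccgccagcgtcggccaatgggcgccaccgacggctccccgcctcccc
Of the 11 higher members with a promoter in the table, 2 held the palindrome and 6 the TGACG part, which the palindrome contains. Over all 27025 promoters the shares were 1.62% and 17.9%. The list was made of genes of this known kind, and its members that were not higher were not counted. The shares are therefore no result about these cells.

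Genes of MGC transport and homeostasis, which keep the fluid around the neurons constant, lay on both sides. Of 40 measured, 11 were at least 2-fold higher and 5 lower (12 and 4 after quantile normalization, 8 and 9 with the same 90th percentile). The median over the 23 members on was 0.29, and over all 40 it was 0.0. Carbonic anhydrase 2 (Car2), with which MGCs convert carbon dioxide to bicarbonate, read 341, 2004, 1165, 114 and 277 at 8 weeks and 16883, 14186, 15851, 18208 and 13878 at 25 weeks, a log2 difference of at least 3.99 [3.88 to 4.03]. The membrane carbonic anhydrase Car14 read 2027, 1689, 2143, 1427 and 2059.7 and 17025, 10647, 9469, 18536 and 15493 (2.93 [2.66 to 3.07]). Atp1b2, the glial beta subunit of the sodium pump, read 376, 3635, 4024, 1318 and 385 and 10788, 15384, 11036, 12272 and 12419 (3.22 [2.49 to 3.42]). The late cells were closely spaced in all 3 genes and lay above every early cell.

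The aquaporin Aqp4, the water channel of the MGC endfoot, was on in 4 of 5 cells at 8 weeks and in all at 25 weeks, with 4866, 9104, 8412, 4108 and 1236 and 18334, 16079, 9987, 12614 and 26362 and no overlap (1.72 [1.33 to 1.85]). The WT cells read 75747, 56351, 62361, 22766 and 66144, so 4 of 5 lay above both ages. The glutamate transporter Slc1a2 (medians 462, 5872 and, in WT, 18060.0; at least 2.55 [1.97 to 2.60]) and the glutamine transporters Slc38a3 (2233, 12880.0 and 862; 2.53 [2.26 to 3.11]) and Slc38a2 (338, 6262 and 4916; at least 2.65 [2.08 to 3.21]) were higher at 25 weeks. So were the phosphate transporter Slc20a1 (at least 2.79 [2.18 to 2.79]), the orphan receptor Gpr37 (2.41 [1.86 to 2.54]) and the tetraspanin Cd9 (at least 3.86 [2.70 to 3.90]), and in Gpr37 and Cd9 the ages did not overlap. On the lower side stood the GABA transporter Slc6a11 (medians 8225 and 2258, -1.87 [-2.03 to -0.39]), which was under 2-fold without cell 1, 2 or 3 in turn, and the thyroid hormone-binding protein crystallin mu (Crym; 141246 and 29211, -2.27 [-2.30 to -2.15]), which came to -0.43 after quantile normalization. The amino acid transporter subunit Slc3a2 (51819 and 18624, -1.48 [-1.67 to -1.28]; -0.42 after quantile normalization) and Atp1b1, another beta subunit of the sodium pump (4580.2 and 1717, -1.42 [-1.80 to -1.09]), were lower too.

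Genes of Notch, Wnt and Hedgehog signalling, the pathways that pattern the retina and that persist in adult MGCs, had 10 of 40 measured members at least 2-fold higher at 25 weeks and 0 lower (11 and 0 after quantile normalization). The median over the 12 members on was 2.00, and over all 40 it was 0.0. The Hedgehog receptor Ptch1, itself a target of the pathway, read 394, 762, 1226, 285 and 8401 at 8 weeks and 11172, 10046, 6467, 4280.1 and 9895 at 25 weeks (at least 3.31 [3.00 to 3.32]). Cell 8 was the only early cell on, all late cells were on, and 4 of the 5 WT cells lay above all 10, with 29221, 39087, 32706, 6031 and 36509.6. Smoothened (Smo), the transducer that Ptch1 holds in check, was on in 0, 4 and 5 of 5 cells at 8 weeks, 25 weeks and in WT (medians 549, 3919.8 and 11113; at least 1.97 [1.53 to 2.25]). The Hedgehog co-receptor Gas1 was on in 0, 3 and 4 (at least 1.60 [0.93 to 2.18], under 2-fold without A3 or A5), and the pathway inhibitor Sufu in 1, 4 and 1 (at least 2.12 [1.79 to 2.33]). Of the Wnt pathway, beta-catenin (Ctnnb1) had medians of 2439.5, 12855 and 22719 (2.40 [1.77 to 2.79]) and the nuclear factor Tcf7l1 of 1480.4, 7249 and 1669 (2.29 [1.01 to 2.47]). Adam10, Fzd5, Notch2 and Wnt5a were the other members. For Ptch1, Smo, Gas1 and Ctnnb1 the order of the medians was 8 weeks, 25 weeks, WT.

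Retinal progenitor and eye field transcription factors showed 7 of 34 members higher and 1 lower at 25 weeks (5 and 2 after quantile normalization). The median over the 13 members on was 1.03, and over all 34 it was 0.0. Sox2, a factor of neural progenitors that is also among the MGC markers, read 4089, 1499.6, 4760.0, 7087 and 4720.4 at 8 weeks and 12827, 16489, 32219, 20620.2 and 21899.5 at 25 weeks, without overlap (2.13 [1.97 to 2.23]), and 64438, 11052, 41068, 62414 and 37954 in WT. The RNA-binding Zfp36l1 was on in 0 early and 5 late cells (at least 2.35 [2.21 to 3.54]) and in all 5 WT cells. The homeobox factor Lhx2, needed for the MGC fate, had medians of 1218 and 5455 (2.16 [1.48 to 2.72]), and the nuclear factor Nfix of 1667 and 5948 (1.84 [1.27 to 2.11]). Six6, Nfib and Nfia were also higher. Rax, the eye field homeobox gene, was the member that lay lower, on in 4 early and 1 late cells (-1.68 or beyond [-2.29 to -1.68]). Among cell cycle genes 5 of 44 were higher and 2 lower. They included the growth inhibitors Btg2 and Btg1, and the replication clamp Pcna was on in 0 early and 3 late cells (medians 377 and 2063, at least 1.04 [0.96 to 1.50]), under 2-fold without A1 or A5 and at 0.64 after quantile normalization.

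Circadian clock genes had 8 of 21 members higher at 25 weeks and 0 lower (5 and 0 after quantile normalization). The median over the 11 members on was 1.38, and over all 21 it was 0.0. Ciart, a repressor of the clock's activators, read 287, 471, 418, 203 and 461 at 8 weeks and 5920.1, 6188, 19.5, 9846 and 10443 at 25 weeks (at least 2.63 [2.60 to 2.96]); it was off in all early and WT cells and on in all late cells but A3. The nuclear receptor Nr1d2, which represses clock and metabolic genes, read 4719, 2569, 692, 260.0 and 580.0 and 5916, 4975, 3029.6, 6948 and 19576 (at least 2.56 [1.88 to 2.68]), on in cells 1 and 2 and in every late cell. Tef (medians 2015 and 6908, 1.78 [1.24 to 2.28]) and Per2 (183 and 3316, at least 1.73 [0.94 to 1.94]; under 2-fold without A3 or A4) were higher too, as were Per1, Nr1d1, Per3 and Rora. Of the activators, Clock was on in cells 3 and A5 and Arntl in A3. The times of day at which the retinas were taken are not given in the sources used here, and their part was not tested. Clock activators bind the E-box CACGTG, and the 250 bases before the start of Ciart, printed 5′ to 3′ from RefSeq on GRCm38.p6, held 3 of them, shown in capitals because this gene led the group.
Ciart (chr3:95882229-95882478, minus strand): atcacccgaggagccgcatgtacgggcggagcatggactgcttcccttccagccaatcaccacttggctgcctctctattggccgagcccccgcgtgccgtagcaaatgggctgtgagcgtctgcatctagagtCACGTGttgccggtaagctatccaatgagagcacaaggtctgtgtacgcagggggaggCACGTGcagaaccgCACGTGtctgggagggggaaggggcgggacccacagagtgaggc
Of the 7 higher clock genes with a promoter in the table, the E-box was held by 3 (Ciart, Tef and Per1), against 6.05% of 27025 promoters. The list was made of known clock genes, and its other members were not counted, so this share is no result about these cells.

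**Figure D4:**
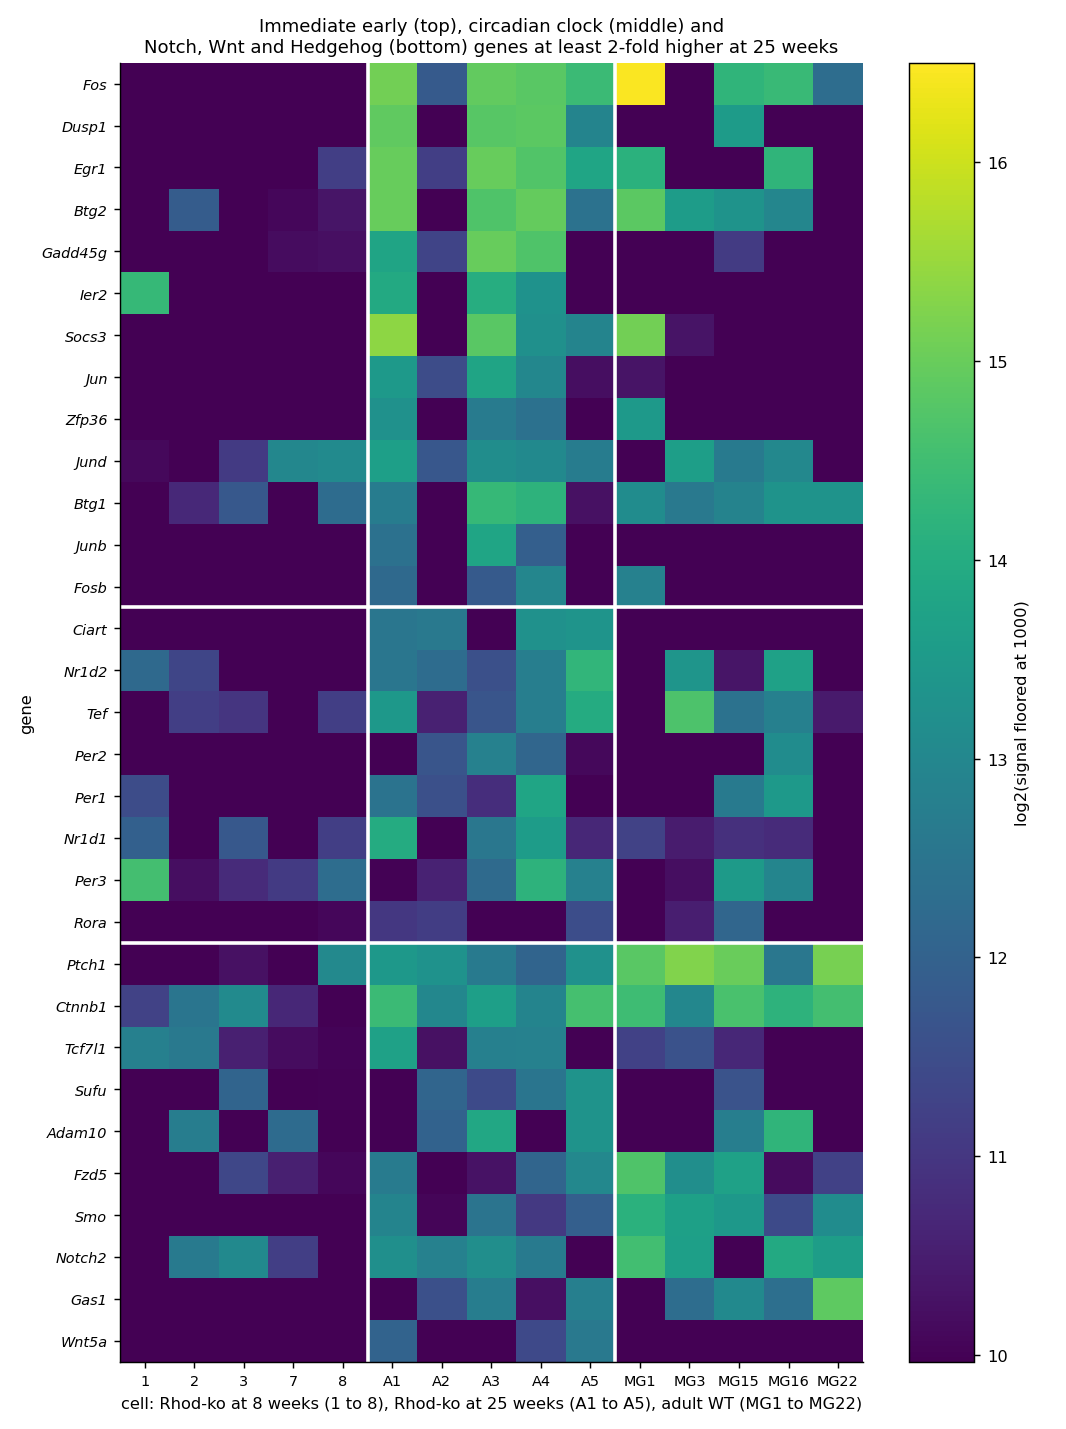
log2 signal, floored at 1000, of the 13 immediate early, 8 circadian clock and 10 Notch, Wnt and Hedgehog genes at least 2-fold higher at 25 weeks, in the 5 cells at 8 weeks, 5 at 25 weeks and 5 adult WT cells. The immediate early genes are bright in A1, A3 and A4 and mostly dark in A2, while Ptch1 is brightest in WT.

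Splicing and RNA-binding genes process nascent transcripts. Of 63 members 26 were higher and 4 lower (20 and 6 after quantile normalization, 18 and 10 with the same 90th percentile). The median over the 48 on was 1.11, and over all 63 it was 0.547. Hnrnpa2b1, which packages nascent transcripts and sorts messenger RNA, read 261, 1589.8, 702, 37.1 and 493 at 8 weeks and 23380.4, 17407, 19995, 19019 and 10043 at 25 weeks (at least 4.25 [4.18 to 4.29]). The splicing activator Srsf1 read 414, 461, 213, 329.7 and 628 and 7535, 2985, 11535, 9759 and 12634 (at least 3.29 [3.10 to 3.41]). Neither gene was on in any early cell and both were on in all late ones. The splicing enhancer protein Tra2a (medians 1071 and 11375, 3.41 [2.80 to 3.46]) and the glial RNA-binding protein quaking (Qk; 952 and 7081, at least 2.82 [2.27 to 3.06]) did not overlap either. Snrpg, Neat1, Hnrnpul2 and U2af1 were the members that lay lower.

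Protein quality control was divided. Proteasome and ubiquitin genes had 16 of 35 members higher and 6 lower, but after quantile normalization 7 and 6. The proteasome subunit Psma2 (438 and 10167, at least 3.35 [2.80 to 3.38]) and the ubiquitin-conjugating enzyme Ube2n (1009 and 7899, 2.97 [2.35 to 2.98]) were higher, and the subunit Psmb3 (14982 and 1746, -3.10 [-3.38 to -2.13]) lower. In the endoplasmic reticulum, 7 of 27 folding and unfolded protein response genes were higher and 1 lower (3 and 2 after quantile normalization), led by the chaperones Hsp90b1 (343 and 8150.3, at least 3.03 [2.16 to 3.11]) and calnexin (Canx; 1091 and 5762, 2.40 [2.14 to 2.71]). Heat shock proteins and other chaperones were 5 higher and 5 lower of 29. Hsp90aa1 was higher without overlap (3372 and 19245, 2.51 [2.24 to 2.67]), while the constitutive Hspa8, -2.03 [-2.06 to -1.90] as deposited, came to 0.02 after quantile normalization.

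Genes of respiration and of the ribosome were more often lower than higher at 25 weeks, as deposited. In respiratory complex I 14 of 34 members were at least 2-fold lower and 5 higher, in complexes II to IV 11 and 4 of 25, and in ATP synthase 7 and 4 of 16. After quantile normalization the lower counts were 13, 10 and 4 and the higher counts 4, 5 and 4. Scaled to the control RNAs the split turned, with 2, 1 and 1 lower and 22, 13 and 12 higher. Atp5k, a small membrane subunit of ATP synthase, read 132358, 63189, 85631, 41495 and 102769 at 8 weeks and 1213, 3606, 3745, 2581 and 1954 at 25 weeks, without overlap (-5.05 [-5.25 to -4.81]). The complex III subunit Uqcr11 (54449 and 3606, -3.92 [-4.13 to -2.91]) did not overlap either. In complex I, Ndufv3 (-4.53 or beyond [-5.38 to -3.92]) and Ndufa5 (-4.52 [-4.66 to -3.86]) were lower by similar amounts, and the cytochrome oxidase subunit Cox5b by less (-2.56 [-2.78 to -2.08]). Others of the same complexes lay clearly the other way: Ndufb3 was on in 0 early and 5 late cells (at least 3.24 [3.00 to 3.33]), Ndufa8 in 0 and 5 (at least 2.48 [2.33 to 2.65]), and the ATP synthase subunit Atp5j had medians of 2471 and 10026 (2.02 [1.97 to 2.13]). Complex I and ATP synthase thus had members on both sides, and of complex II Sdhb and Sdhc were higher and no member was lower.

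Of 45 cytosolic ribosomal proteins measured, 22 were lower and 4 higher, and after quantile normalization 12 and 7, while scaled to the control RNAs 1 was lower and 22 were higher. The median over the 39 on was -1.29, and over all 45 it was -0.697. Rpl35 read 283209, 154468, 178378, 298769 and 418340.2 at 8 weeks and 19421, 17789.8, 20556, 21578 and 18897 at 25 weeks (-3.87 [-3.90 to -3.53], and -2.39 after quantile normalization). Rpl41 (-3.70 [-3.94 to -3.11]) and Rpl38 (-3.49 [-3.68 to -3.39]) were lower without overlap. Rpl7a (885 and 11176, at least 3.48 [3.44 to 3.53]) and Rps18 (1866 and 14902, 3.00 [2.92 to 3.24]), in the same ribosome, were higher without overlap. Glycolysis genes were 5 higher and 5 lower of 29, with 18 on in at least 3 cells (3 and 2 after quantile normalization). The glucose transporter Slc2a1 had medians of 7537 and 23073 (1.61 [1.44 to 1.77]), and Gapdh, -2.08 [-2.08 to -2.00] as deposited, came to 0.44 after quantile normalization. In the citric acid cycle, 6 of 20 were higher and 4 lower. The entry enzymes pyruvate dehydrogenase (Pdha1; 4738 and 799.9, -2.24 or beyond [-2.29 to -2.15]) and pyruvate carboxylase (Pcx; 3044 and 183, -1.61 or beyond [-1.67 to -1.48]) were both lower without overlap.

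**Figure D5:**
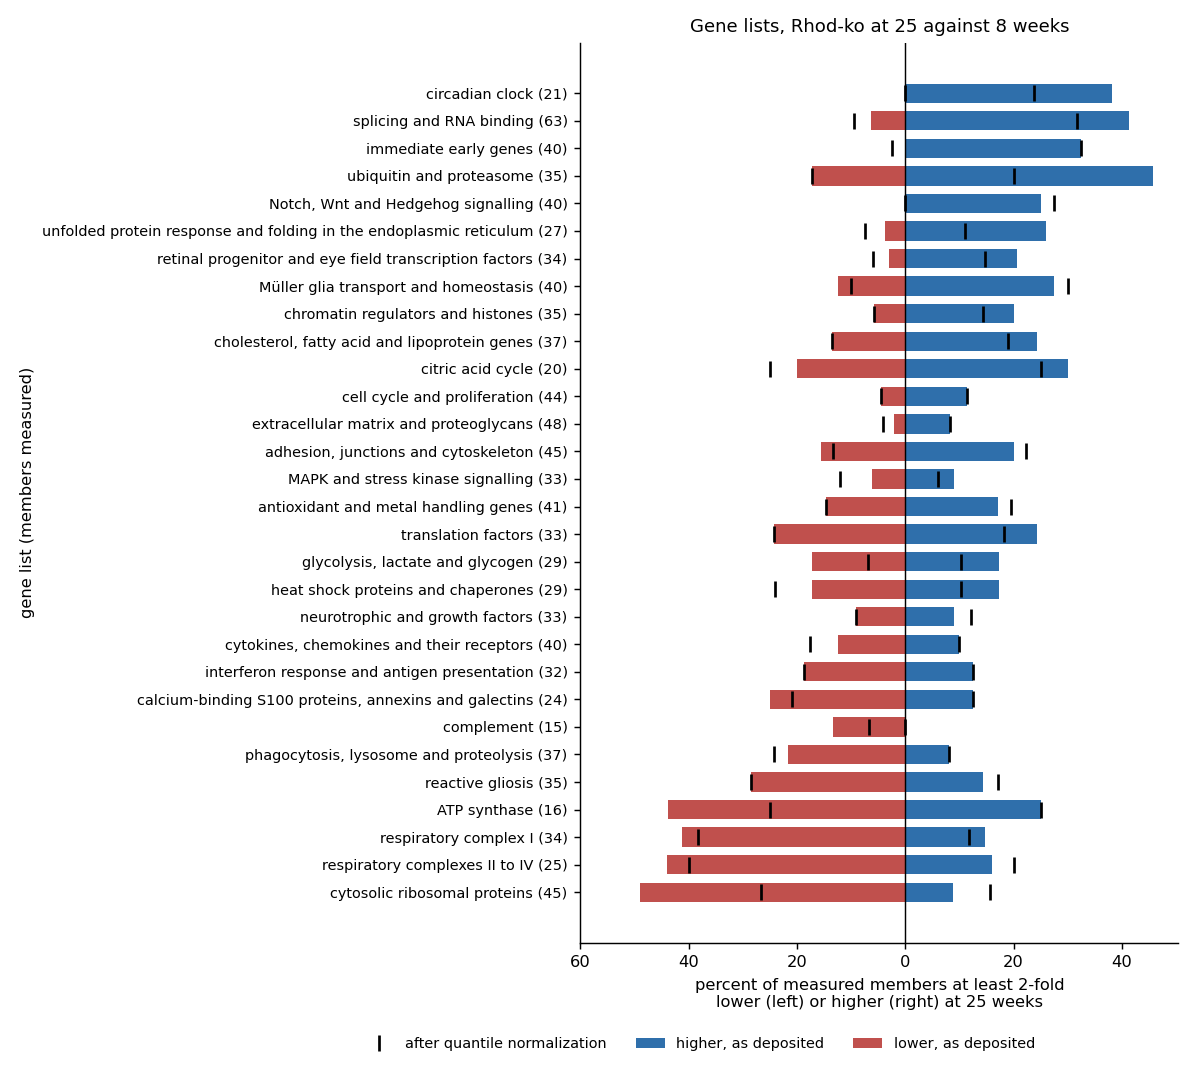
Percent of the measured members of each gene list (number measured in parentheses) that were at least 2-fold lower (left, red) or higher (right, blue) at 25 weeks, with black ticks for the same after quantile normalization. Immediate early, circadian clock and Notch, Wnt and Hedgehog lists have no bar on the left. Over all genes the values were 7.33% higher and 4.16% lower. Over the genes on in at least 3 of the 10 cells they were 35.8% and 20.3%.

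Immune genes lay on both sides. Of 32 interferon and antigen presentation genes, 6 were lower at 25 weeks and 4 higher, as deposited and after quantile normalization (2 and 10 scaled to the control RNAs). Ifitm3, an interferon-induced membrane protein, read 291673, 27.0, 76408, 68416 and 112473 at 8 weeks and 25537, 6.0, 13110.4, 77.9 and 4.5 at 25 weeks (-6.26 or beyond [-6.54 to -4.40]); it was off in cell 2 and on in A1 and A3. The peptide-loading chaperone Tapbp (11362 and 1054, -3.43 [-4.19 to -2.16]) and Ifi27 (31345 and 3815, -3.04 [-4.00 to -0.98]) were lower, the latter under 2-fold without cell 1 or 2, and B2m, the light chain of class I molecules, was higher (2762 and 19832, 2.84 [2.02 to 3.47]). Without cell 7, which carried the microglial markers, each of these 4 genes stayed at least 2-fold apart. Any part of microglial RNA in these differences was not tested. The C1 inhibitor Serping1 was lower (26600.3 and 5629, -2.24 [-2.98 to -1.65]) and on in 0 of 5 WT cells. Lysosomal and phagocytosis genes were 8 lower and 3 higher of 37 (1 and 24 scaled to the control RNAs), among the lower ones the proteases cathepsin A (Ctsa; -2.99 or beyond [-3.26 to -2.50]) and cathepsin D (Ctsd; 37149 and 7305, -2.35 [-2.57 to -1.71]). Of 24 S100, annexin and galectin genes 6 were lower and 3 higher, and S100a13, a carrier in unconventional secretion, was lowest of these (35471 and 129, -5.15 or beyond [-5.24 to -4.25]).

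Pleiotrophin (Ptn), a heparin-binding neurotrophic factor of glia, read 1629.8, 1028, 1854, 867 and 497 at 8 weeks and 7708, 16707, 6659.5, 18692 and 14904 at 25 weeks (3.86 [3.38 to 3.94]), and 42347, 16028, 30691, 21307 and 28699 in WT. Among 33 growth factor genes, 10 of them on in at least 3 cells, 3 were higher and 3 lower. Igf2 was on in 0 early and 4 late cells (at least 2.31 [1.87 to 2.48]) and the protease Bmp1 in 3 and 2 (-2.64 [-3.07 to -1.16]). Of 48 matrix genes, 13 of them on in at least 3 cells, 4 were higher and 1 lower. The proteoglycan Sdc4 was on in 1 early and all late cells (at least 3.49 [2.99 to 3.59]), and collagen IX (Col9a1) had medians of 7569, 26460.1 and, in WT, 33066 (1.81 [1.58 to 1.94]). Of 45 cytoskeletal and junction genes 9 were higher and 7 lower. Cofilin (Cfl1), which severs actin filaments (5852 and 36407, 2.64 [2.56 to 2.86]), and the tight junction scaffold Tjp1 (at least 2.86 [2.23 to 2.87]) were higher without overlap, and talin (Tln1; 11415 and 165, -3.51 or beyond [-4.03 to -3.38]) and integrin alpha V (Itgav; 70306 and 12791, -2.46 [-2.66 to -2.19]) lower without overlap. Among the lipid genes, the fatty acid activating enzyme Acsl3 was at 6679, 26824 and, in WT, 72207 (2.01 [1.89 to 2.20]). Of 35 chromatin genes, 19 of them on in at least 3 cells, 7 were higher and 2 lower, among the former the deacetylase Hdac2 (at least 2.83 [2.58 to 2.86]). Translation factors were 8 and 8 of 33, with 31 on and Eif4a2 higher (at least 2.70 [2.43 to 2.77]).

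The remaining genes with the largest differences among those that did not overlap were these. Higher at 25 weeks were the mitochondrial protein Mgarp (medians 1258 and 31529.6, 4.65 [3.99 to 4.69]), Fam169a (797 and 21853, at least 4.45 [4.42 to 4.45]), the nuclear transport GTPase Ran (1136 and 16937, 3.90 [3.77 to 3.92]) and the cortical cytoskeleton protein Epb41l2 (412 and 14787, at least 3.89 [3.54 to 3.90]). The noncoding RNA Norad (1206 and 17573, 3.87 [3.62 to 3.99]), the vesicle GTPase Arf4 (257 and 13866, at least 3.79 [3.20 to 3.92]) and the amylase Amy1 (265 and 12921, at least 3.69 [3.51 to 3.74]) followed. Lower was the death-promoting Bcl2 relative Bad, which read 34438, 22101, 16941, 28743 and 66269 at 8 weeks and 2933, 221, 243, 126 and 492 at 25 weeks (-4.85 or beyond [-4.98 to -4.66]), with A1 the only late cell on. Transglutaminase 2 (Tgm2; 23878 and 831, -4.58 or beyond [-4.70 to -4.11]), Tnfaip1 (21162 and 939.7, -4.40 or beyond [-4.54 to -3.94]), Sugp2 (33084 and 258, -5.05 or beyond [-5.79 to -4.07]) and the mitochondrial ribosomal protein Mrpl52 (54525 and 2237, -4.61 [-4.87 to -3.71]) were lower as well. Of the other genes followed, the kinase inhibitor Pebp1 was -2.74 [-2.92 to -2.48] as deposited and -0.62 after quantile normalization. Emg1 had medians of 1326 and 503, with 2 cells on at each age, and Nos1 was on in no Rhod-ko cell of either age.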

How the data were processed

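Single MGCs were picked by shape from papain-dissociated retinas, and the amplified cDNA of each was hybridized to an Affymetrix mouse array. The deposited values were MAS5 signal intensities, linear and scaled per array by the authors; amplification by PCR makes them relative. Of 45101 probe sets, 34958 had 1 gene symbol in the platform annotation, 932 several and 9211 none, and 34754 of the former matched a RefSeq gene. Those with 1 symbol gave 18194 genes, each valued at its highest probe set in the cell. Signals below 1000 were set to 1000, log2 medians of 5 cells were compared, and 2000 or more counted as on. Overlap between the ages was judged on the signals without the floor. A median difference of at least 1 on the log2 scale (2-fold) was the rule of size, and no p-value was computed, since no animal is named for any cell and each age is 1 sample. Probe sets with a shared suffix (_s, _x) can hybridize with related genes, and an alternative left them out. Other alternatives changed the scaling, floor, threshold and averaging and left out each cell. The scripts (Python 3.11.15, numpy 2.4.6, pandas 2.3.3, scipy 1.17.1, matplotlib 3.10.9) were tested on simulated data.

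The members and gene lists were chosen with earlier results of these data known. Genes were named by a rule: the 12 largest differences each way among genes whose ages did not overlap, up to 4 higher and 4 lower per list, the main MGC genes, some further genes, most of them discussed by the study, and markers of other cells that were on. Members named only to complete a list, and the clock activators, were chosen after their values were seen. Some genes are not reported here. Promoter sequences were RefSeq's, on GRCm38.p6.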

Additional observations from a re-analysis of the deposited data

Results flagged for a closer look

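Single cells stood far from the other 4 cells of their age in 17 of 90 groups of 5 values examined (30 genes, 11 marker sums, the numbers of genes and of immediate early genes on, the control signal and the Gapdh ratio, at each age). Chance flags about 1 in 20 groups of freely varying values, but gene signals were floored at 1000 here, and where the other 4 cells lay under the floor (A2m, Egr1, Hnrnpa2b1 and Bad) any cell above it stands apart by construction, so that rate does not apply to them. At 25 weeks, cell A3 had the signal of Gfap (29918.0) and A2m (29622) that the other 4 lacked, and its summed microglia and macrophage markers (9572) were also highest. The same cell lacked Ciart (19.5). Cell A2 was low in Fos (3587) and high in summed amacrine and horizontal markers (26450.3), and cell A1 had Bad at 2933. At 8 weeks, cell 8 had Ptch1 at 8401, Egr1 at 2321, 8 immediate early genes on and summed pigment epithelium markers of 32046. Cell 2 had Btg2 at 3742, Car2 at 2004, Hnrnpa2b1 at 1589.8, the lowest Ifitm3 (27.0) and the highest sum of ganglion cell markers (35828). Cell 7 had summed microglia and macrophage markers of 292083. These are values of single cells, and no explanation was tested.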

How the results depend on the processing

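With arrays scaled to the same 90th percentile, 840 genes were at least 2-fold higher at 25 weeks and 1195 lower. With a floor of 2000, 696 were higher and 506 lower, and with a floor of 500, 1864 were higher and 1378 lower. Scaled to the hybridization control RNAs, a setting chosen after seeing the data, 3244 were higher and 106 lower. Leaving out each cell in turn gave 1245 to 1440 higher and 707 to 890 lower. The median number of genes on at 8 and 25 weeks was 3298 and 3879 at a threshold of 1000, 678 and 580 at 10000, 2617 and 2611 after quantile normalization, and 2504 and 2607 with the same 90th percentile. Leaving out each cell moved it between 2035.5 and 2138.0 at 8 weeks and between 2916.0 and 3052.0 at 25 weeks. Of the 133 genes followed, 126 were at least 2-fold apart. Quantile normalization kept the direction of 123 and the size of 118, and turned Rlbp1 to 0.93, Gapdh to 0.44 and Hspa8 to 0.015. The same 90th percentile kept the direction of 126 and the size of 121 (Aqp4, Nfix, Slc2a1, Scp2 and Pcna were under 2-fold), group means the size of 120, and the floor of 2000 of 119. With 1 probe set per gene, 125 kept the direction and the size. Without _x and _s probe sets 124 had a value, 121 kept the direction and 115 the size. The genes that changed in these 2 settings are not marked where their values are given above. Without cells 7 and 8, 122 kept the direction and 118 the size. Among the genes that changed direction were Stat3, at -1.68, and Rom1, at 1.75. Without any single cell, 122 to 126 stayed at least 2-fold apart. The cause of these shifts was not tested. No paired analysis was possible, because each cell was picked at 1 age and has no partner at the other.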
